A study of Homo sapiens with 3 samples.

Results

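The lysosomal proteases of antigen processing were described here through 10 listed genes: the cathepsins CTSS, CTSB, CTSC, CTSD, CTSH, CTSL and CTSZ, the asparaginyl endopeptidase LGMN, the thiol reductase IFI30 and the protease inhibitor CST3. Members were taken by gene symbol, with every probe set annotated to that symbol alone. This gave 14 probe sets for 9 genes, among 19065 probe sets and 11963 genes in all. IFI30 had no probe set annotated to its symbol alone, so no value is given for it. The cells were HT-29, an established human colon adenocarcinoma line. All 3 arrays measured cultures plated at 50000 cells per cm2 for 24 h and then given 200 U/ml interferon-γ (IFN-γ) for 24 h, and the series calls them biological replicates. No untreated culture was analysed here, so every value is a level in treated cells and none is a response to IFN-γ.

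Proteins that reach the lysosome are cut into peptides by cysteine, aspartic and asparaginyl proteases in an acid, reducing compartment. In antigen-presenting cells some of these enzymes trim the invariant chain, the CD74 protein that blocks the groove of MHC class II molecules, so that peptides can be loaded. Cystatin C, the product of CST3, inhibits cysteine cathepsins, and IFI30 reduces disulfide bonds so that proteases can reach folded antigens. IFN-γ is known to make epithelial cells express class II molecules, which are otherwise typical of professional antigen-presenting cells.

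The link between names and values was examined before any level was read. In the value table the names stand in another order than the values. The order used here was inferred from the data, through the agreement of probe sets of a gene. The correlations below are of that same kind, so they are no independent support for the order. Between the first pair of probe sets of a gene, mean log2 signals correlated with r = 0.60 and rho = 0.60 under the order used, against r = 0.19 and rho = 0.19 under the names as deposited, over 4310 genes. Genes do not count as independent replicates here. The order was also examined around each member. In a window of 1500 rows centred on each of the 14 member probe sets, the probe sets were set against distant probe sets of the same genes. The order used gave r between 0.39 and 0.55 in these windows. The names in a window were then moved by up to 20 rows either way, with the distant probe sets kept in place. This gave a lower value in 14 of 14 windows, with a highest r of 0.33. Windows of neighbouring member probe sets overlap, so these are not 14 separate checks. Both CTSS windows, for instance, gave the same r of 0.40. All member values depend on this order. CTSC read 3086, 2937 and 2913 in replicates 1, 2 and 3 under it, against 583, 546 and 334 under the names as deposited, and CST3 read 1356, 1602 and 586, against 13017, 18681 and 13296.

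**Figure D1:**
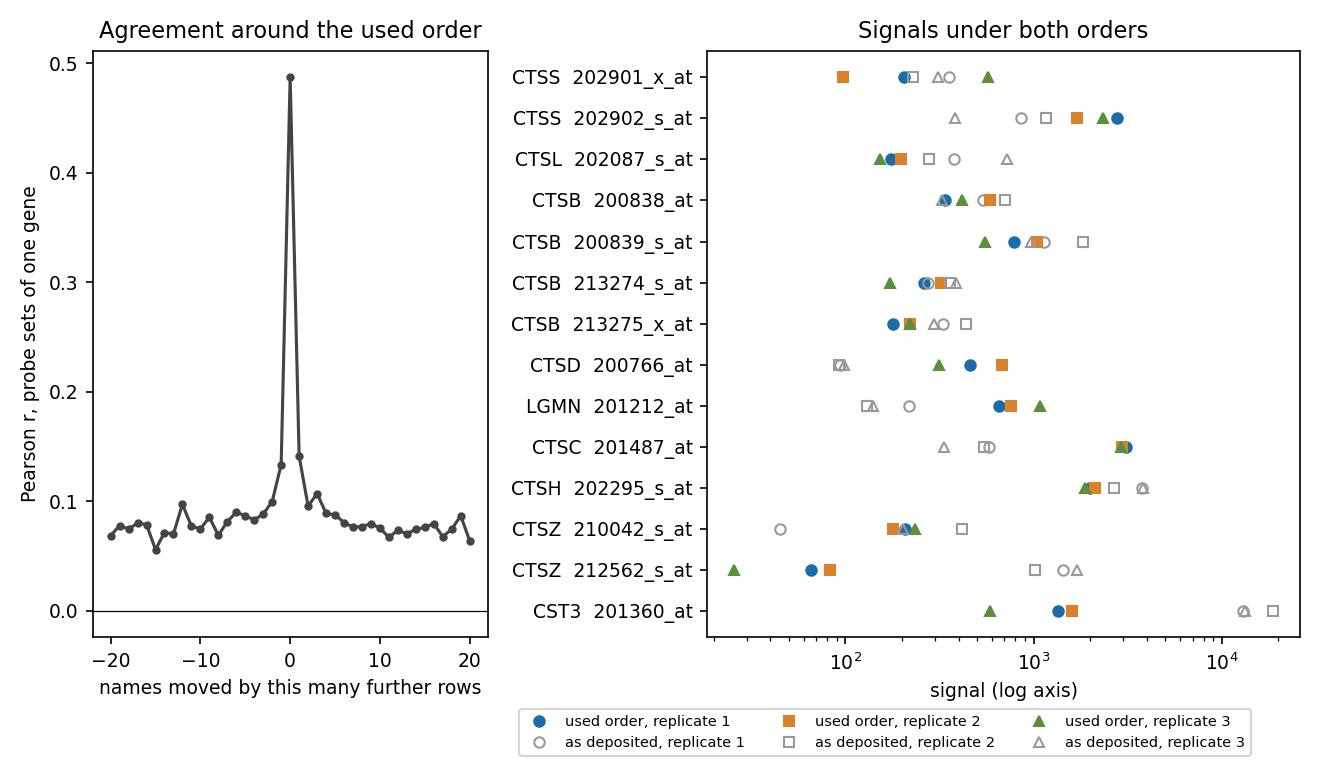
Left, Pearson r of mean log2 signal between distant probe sets of a gene (vertical axis) when names are moved by up to 20 rows from the order used (horizontal axis). Right, the signal of each of the 14 member probe sets on a log axis, filled under the order used and open under the names as deposited, with a marker shape for each replicate. Agreement peaks at 0 further rows with r = 0.49, and CST3 and the CTSZ probe set 212562_s_at are far lower under the order used than under the deposited names.

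A probe set was called detected where it passed a test against a background limit set on each array. That limit was the 95th percentile of the 149 probe sets of 100 genes listed as typical of other tissues. It stood at 181, 194 and 173 in replicates 1, 2 and 3. Whether these genes are silent in HT-29 cells was not tested, and 2 of their probe sets were themselves detected. Detection used limma's one-sided test of log2 signal minus log2 limit, with Benjamini-Hochberg adjustment over all 19065 probe sets and an adjusted p under 0.05. The p-values cover only the spread between these 3 arrays. For each probe set limma drew that spread toward a trend over all probe sets, so it is not the probe set's own spread alone. Of all probe sets 38.0% were detected, and 43.4% of all genes had at least 1 detected probe set. Under the names as deposited 2.45% of probe sets were detected, and 1 member probe set. The limit was then 3658, 3084 and 3018 in replicates 1, 2 and 3, because the names of the background genes moved too. The share over all probe sets therefore reflects a much higher limit. The member count reflects that limit and other member values. Among the members, under the order used, 8 of 14 probe sets were detected, and 7 of 9 genes had at least 1, namely CTSS, CTSB, CTSC, CTSD, CTSH, LGMN and CST3. With the median over probe sets as the value of a gene, 7 of 9 members and 37.6% of all genes were detected. The median of the 14 member probe sets was 1.30 log2 units over the limit, against -0.27 for all probe sets. The 8 detected probe sets were also the 8 that exceeded the limit on all 3 arrays. CTSL and CTSZ were not detected. In such bulk samples a low level in every cell and a high level in few cells cannot be told apart.

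**Figure D2:**
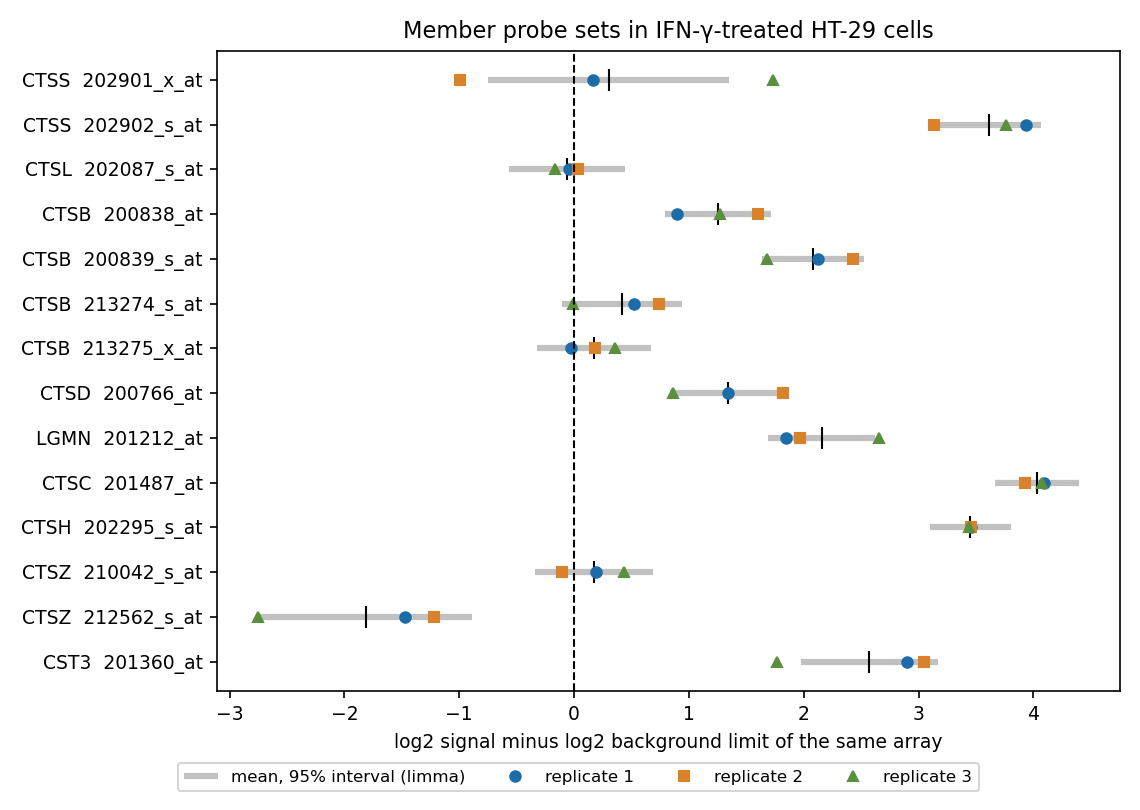
Log2 signal minus the log2 background limit of the same array (horizontal axis, 0 is the limit) for the 14 member probe sets, with a marker for each replicate, a tick at the mean and a bar for limma's 95% interval. CTSC, CTSH and the CTSS probe set 202902_s_at lie between 3.45 and 4.03 log2 units over the limit on average. CTSL, CTSZ 210042_s_at, CTSS 202901_x_at and the CTSB probe sets 213274_s_at and 213275_x_at straddle the limit.

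Of the endopeptidases, which cut inside a protein chain, CTSS encodes cathepsin S, the cysteine protease best known for the late cuts of the invariant chain in antigen-presenting cells, and it stays active at neutral pH. Its probe set 202902_s_at had signals of 2769.9, 1702 and 2339 in replicates 1, 2 and 3, a mean of 2270.2 ± 537 (SD, n = 3). All 3 arrays were far above the limit, by 12.2-fold on average (95% interval 8.90 to 16.7, limma adjusted p = 8.1e-07). Its other probe set, 202901_x_at, had signals of 204, 97.1 and 572 and was not detected (log2 distance 0.30, 95% interval -0.75 to 1.35, limma adjusted p = 0.600). That probe set lay under the limit in replicate 2 and was highest in replicate 3, with a 5.89-fold range over the arrays. The _x_at suffix marks a design to which related transcripts can bind, and the _s_at suffix a design shared by several transcripts. Without replicate 2 the CTSS probe set 202901_x_at was detected at 0.95 log2 units (limma adjusted p = 0.0213), and without replicate 3 it lay at -0.41.

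CTSL encodes cathepsin L, a cysteine endopeptidase with broad activity that takes the place of cathepsin S in the thymic epithelium of mice. Its single probe set had signals of 176, 199 and 153.6 in replicates 1, 2 and 3, a mean of 176 ± 22.5 (SD, n = 3). It exceeded the limit in replicate 2 and lay under it on the other arrays. The mean distance was -0.06 log2 units (95% interval -0.57 to 0.45), and the upper end of the interval was 1.36 times the limit. With the limit at the 90th percentile of the same background probe sets the distance was 0.28, and CTSL was still not detected (limma adjusted p = 0.269).

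CTSB encodes cathepsin B, an abundant cysteine protease that acts both as an endopeptidase and as a dipeptidyl carboxypeptidase. It was the member with the most probe sets, and 2 of its 4 were detected. Probe set 200839_s_at had signals of 792, 1043 and 555 in replicates 1, 2 and 3, a mean of 796 ± 244 (SD, n = 3) and 4.23 times the limit (limma adjusted p = 1.7e-05). Probe set 200838_at had 337, 588 and 416, a mean of 447 ± 128 (SD, n = 3) and 2.39 times the limit (limma adjusted p = 0.00048). Both were highest in replicate 2, and all 6 of these values exceeded their limits. Probe set 213274_s_at, at 260.3, 324 and 172, lay just under the limit in replicate 3 and was not detected (limma adjusted p = 0.128), and neither was 213275_x_at at 178, 220.1 and 221 (limma adjusted p = 0.508). Without replicate 3, 213274_s_at was detected at 0.63 log2 units (limma adjusted p = 0.0256).

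CTSD encodes cathepsin D, the main aspartic protease of lysosomes. Its probe set 200766_at had signals of 460.2, 683 and 314 in replicates 1, 2 and 3, a mean of 486 ± 185 (SD, n = 3). All arrays were above the limit, by 2.54-fold on average (95% interval 1.78 to 3.60, limma adjusted p = 0.00057), with replicate 3 lowest. LGMN encodes legumain, which cuts after asparagine, activates some cathepsins and makes early cuts in antigens and in the invariant chain. It had 653, 759 and 1087 in replicates 1, 2 and 3, a mean of 833 ± 226 (SD, n = 3) and 4.46 times the limit (limma adjusted p = 1.8e-05). Among the detected member probe sets, only that of LGMN had its highest signal in replicate 3.

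The exopeptidases, which remove residues from the ends of chains, included the 2 detected members with the smallest spread between arrays. CTSC encodes dipeptidyl peptidase I, known for activating the serine proteases of cytotoxic and myeloid cells, and its signals of 3086, 2937 and 2913 gave a mean of 2979 ± 93.95 (SD, n = 3). This was 16.3 times the limit (95% interval 12.7 to 21.03, limma adjusted p = 2.0e-07), and the highest array exceeded the lowest by 5.95%. CTSH encodes cathepsin H, mainly an aminopeptidase, and had 1994, 2124 and 1869.9 in replicates 1, 2 and 3, a mean of 1996 ± 127 (SD, n = 3). It lay 10.9-fold over the limit (95% interval 8.57 to 13.9, limma adjusted p = 3.0e-07), with all arrays close together. Cathepsin Z, a carboxypeptidase encoded by CTSZ, was not detected on either probe set. Probe set 210042_s_at had 207, 179.9 and 234 in replicates 1, 2 and 3, above the limit in replicates 1 and 3 (limma adjusted p = 0.520, 95% interval of the log2 distance -0.34 to 0.69). Probe set 212562_s_at had 65.3, 83.0 and 25.7, under the limit on every array.

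CST3 encodes the secreted inhibitor cystatin C. Its signals were 1356, 1602 and 586 in replicates 1, 2 and 3, a mean of 1181 ± 530.1 (SD, n = 3). All arrays were above the limit, by 5.94-fold on average (95% interval 3.92 to 9.003, limma adjusted p = 2.9e-05). Replicate 3 stood well below the other arrays, and the highest array was 2.73 times the lowest.

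The detected members differed widely in how well the arrays agreed. The SD of log2 signal was 0.05 for CTSC and 0.09 for CTSH, and 1.97% and 7.53% of all 7249 detected probe sets had an SD as small or smaller. At the other end the SD was 0.78 for CST3, reached by 3.32% of detected probe sets, and 0.56 for CTSD. The remaining detected member probe sets had SDs from 0.36 to 0.46, against a median of 0.29 and quartiles of 0.18 and 0.43 over all detected probe sets. The order of the arrays was shared by several members. Of the 8 detected member probe sets, 4 (CTSB 200839_s_at, CTSD, CTSH and CST3) were highest in replicate 2 and lowest in replicate 3, as were 27.4% of all detected probe sets. Replicate 3 was the lowest array for 5 of the 8, and for 42.7% of all detected probe sets. The part of any array-wide difference in these member values was not tested.

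**Figure D3:**
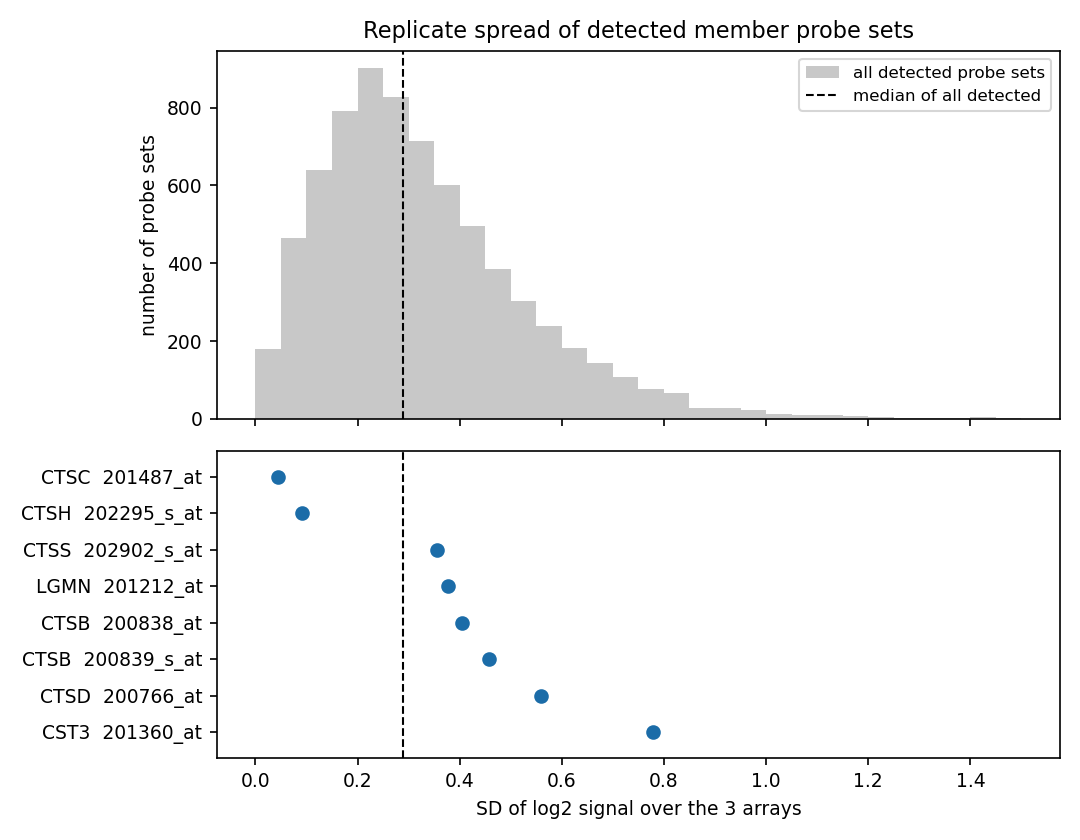
SD of log2 signal over the 3 arrays (horizontal axis) for all 7249 detected probe sets as a histogram (top) and for the 8 detected member probe sets as points (bottom), with the median of 0.29 as a dashed line. CTSC and CTSH lie left of the median, and CTSS, LGMN, CTSB, CTSD and CST3 lie right of it.

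Of 8 other measured cathepsins 2 were detected, beside 43.4% of all genes. CTSA, a lysosomal carboxypeptidase that also protects glycosidases, had signals of 1644, 2362 and 1445 in replicates 1, 2 and 3 (limma adjusted p = 6.9e-07), and CTSO had 439, 369.5 and 386 (limma adjusted p = 0.00051). All 6 of these values were above the limit. CTSV, a close relative of CTSL known from the thymus, lay at the limit with 191, 152 and 202. CTSE, an aspartic protease of gastric epithelium, had 249, 142 and 271, and CTSK, the collagenase of osteoclasts, had 158, 166 and 131. CTSF (36.3, 44.0 and 69.96) and the lymphocyte protease CTSW (8.40, 26.7 and 14.2) were under the limit on every array.

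Among 12 measured cystatins and serpins that inhibit proteases, 2 were detected, beside 43.4% of all genes. CSTB, the cytosolic cystatin B, had signals of 5296, 5298 and 4417 in replicates 1, 2 and 3, a mean of 5004 ± 508 (SD, n = 3; limma adjusted p = 1.9e-07). SERPINB1, which inhibits neutrophil serine proteases, had 2284, 1894 and 1923, also above the limit on all arrays. The salivary and tear cystatin CST5 had 8.30, 21.4 and 40.7, and SERPINB4 had 10.2, 28.9 and 27.9, all under the limit.

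The proton pump that acidifies the lysosome was detected for 15 of 17 measured genes. The share over all genes was 43.4%. Of the pump's 33 probe sets 22 were detected, beside 38.0% of all probe sets. Its membrane ring subunit ATP6V0C had signals of 4039.6, 4829 and 2034 in replicates 1, 2 and 3 on probe set 36994_at. These were highest in replicate 2 and lowest in replicate 3, as CST3, CTSD and 27.4% of all detected probe sets were. ATP6V0E1 had 3418, 3174 and 2471 on its brightest probe set. The subunit forms ATP6V1B1 (63.4, 48.5 and 93.6), known from acid-secreting cells, and ATP6V1G2 (72.4, 68.4 and 17.7), known from neurons, were under the limit on all arrays. Of the 4 transcription factors of the family that drives lysosomal genes, TFE3 was detected at 388, 459 and 316 on probe set 212457_at, and TFEB (40.6, 115 and 63.2), MITF and TFEC were not.

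Of 12 measured class II genes, whose products these proteases serve, 8 were detected, beside 43.4% of all genes. By probe set the count was 11 of 27, beside 38.0% of all probe sets. CD74, the invariant chain, had signals of 5794, 7245 and 3004 in replicates 1, 2 and 3, and HLA-DMA, which exchanges the remaining invariant chain peptide for others, had 2687, 2955 and 2175. Both were highest in replicate 2 and lowest in replicate 3, as were 27.4% of all detected probe sets. HLA-DRA had 3746, 3519 and 3344 on its brightest probe set. CIITA, the activator of class II transcription, was not detected on any of its 3 probe sets, with 179.9, 181 and 198 on the brightest. HLA-DOB and HLA-DQA1 were under the limit on all arrays.

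**Figure D4:**
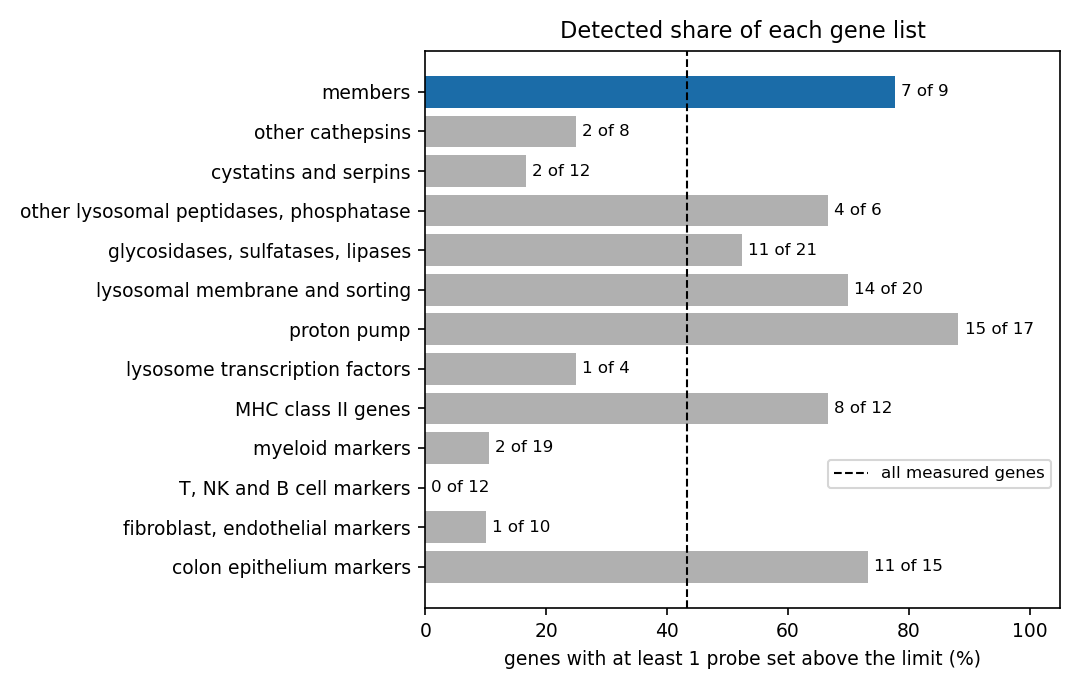
Share of measured genes with at least 1 detected probe set (horizontal axis, percent) in each gene list, with the count beside each bar and the share of all measured genes, 43.4%, as a dashed line. The members stand at 7 of 9, the proton pump at 15 of 17, other cathepsins at 2 of 8 and the myeloid markers at 2 of 19.

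Several members are known above all from myeloid cells, so markers of other cells were read beside them. The share of all genes detected, 43.4%, stands beside each count that follows. Of 19 measured myeloid markers 2 were detected. They were LYZ, which intestinal epithelium also makes, at 6777, 6612 and 14391 in replicates 1, 2 and 3, and SIGLEC1, on 1 of its 2 probe sets, at 777, 905 and 632. The other 17, with CD14, CSF1R, TYROBP, FCER1G and CD163 among them (named after their values were seen), were not detected, and no probe set of the list was listed at 0. Among them the macrophage receptor MARCO had 5.59, 11.4 and 12.4, and the dendritic cell marker CD1C had 19.3, 11.4 and 10.5. The summed signal of the list's 31 probe sets was 8681, 9059 and 16582, of which LYZ made up most. Of 12 markers of T, NK and B cells none was detected by limma, and 0 passed at an unadjusted p under 0.05. CD3E, CD79A, CD79B and NKG7 were under the limit on all arrays. Of 10 fibroblast and endothelial markers COL1A1 was detected, on 1 of its 4 probe sets, and none was without replicate 1 or without replicate 2. DCN was not detected on any of its 4 probe sets, and LUM and CDH5 were under the limit on all arrays. The part of other cells in the member values was not tested. Colon epithelium markers were detected for 11 of 15 genes, with KRT18 at 20577, 24816 and 30067 and KRT8 at 9471, 14788 and 11643. The intestinal transcription factors CDX1 and CDX2, the cadherin CDH17 and the surface antigen GPA33 were not detected (CDX1 and GPA33 were named after their values were seen).

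Promoter sequences of RefSeq (build GRCh38.p14), from 250 bases before to 50 after the start of a gene, were matched for 7 of the 10 members: CTSL, CTSD, CTSC, CTSH, IFI30, CST3 and CTSZ. The motifs described here, searched on both strands, were CACGTG, and GAAA followed by any 2 bases and GAAA. Only the first had a match in a member, so no matches overlapped. CACGTG, the E-box letters at the core of the element that TFEB and its relatives bind, was found in 2 of the 7, and in 7.26% of all 35116 promoters. The windows are shown because these are the 2 members with the motif, which stands in capitals with 20 bases on each side, 5′ to 3′ on the strand of the gene.
CTSD, chr11:1763949-1763994, minus strand: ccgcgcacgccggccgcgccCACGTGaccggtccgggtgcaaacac
IFI30, chr19:18173577-18173622, plus strand: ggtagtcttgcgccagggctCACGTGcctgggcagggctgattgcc
The motif began 47 bases before the start of CTSD and 216 bases before that of IFI30. CTSD was detected at the levels given above, and IFI30 has no value here. The other motif, the core letters of the interferon-stimulated response element, was in 0 of the 7 and in 3.57% of all promoters. These counts describe letters in this window only.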

How the data were processed

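Total RNA of 3 HT-29 cultures was hybridised to Affymetrix arrays. The values deposited by the authors give each probe set's intensity on a linear scale. The submitters' processing notes name MAS5 and Affymetrix Expression Console 1.1. Each array's mean signal, trimmed by 2% at either end, was 500.02 to 500.03, which shows a shared scaling in the deposited intensity. Its target is not given in the sources used here. Presence calls and scanner files were not used here.

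Of 22283 rows 6 were empty. The remaining 22277 values were named in file order as 15 unnamed values, 100 probe sets numbered 200000 to 200099, 493 with lower numbers, 21622 others, and 47 unnamed values, which moved the member names by 487 or 488 rows. Only probe sets with 1 symbol in the platform annotation were named, and 1043 with several were left out. Log2 intensity without a pseudocount, minus the array's log2 limit, was tested against 0 by limma 3.58.1 under R 4.3.3, using a variance trend. The p-values leave out the error of the limit itself. A further promoter motif that was searched is not reported here. The fit was tested on simulated data, as was the agreement of names. The text names all members, the 2 genes of each related list highest and the 2 lowest over the limit, and a fixed set of lysosomal and class II genes, with exceptions marked. Members and lists were chosen with earlier results of these data known. The number of arrays limits the precision.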

Additional observations from a re-analysis of the deposited data

How the results depend on the processing

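The count of 7 detected member genes was also 7 under the other limits, quantile normalization, a pseudocount of 50, no variance trend, a filter on dim probe sets, each replicate left out, and 1 row per gene (the brightest probe set or the median, where 37.6% of all genes were detected). It was 5 without the _x_at and _s_at probe sets, which leaves 5 members measured, without CTSS, CTSH, CTSL and CTSZ. Of all 19065 probe sets 8093 were detected with the limit at the 90th percentile and 5691 at the 99th, against 7249 at the 95th. The count was 7205 with quantile normalization, 7180 with the pseudocount, 6955 without the variance trend, and 6607 to 7253 without 1 replicate. With the filter on dim probe sets 7517 were detected, of fewer tested. The 8 detected member probe sets kept direction and call in all 77 comparisons with an alternative other than the deposited names. Without _x_at and _s_at probe sets the counts were 5 member probe sets, 3379 probe sets in all, 9 proton pump genes, 4 class II genes, 1 myeloid marker, 7 colon markers, 3 inhibitors (2 with all probe sets) and 0 fibroblast or endothelial markers. Fewer probe sets were tested there, and the limit was also lower, at 160.7, 165 and 149. Under the names as deposited 1 member probe set of 1 gene and 467 probe sets in all (2.45%) were detected, r between probe sets of a gene was 0.19, and the lists gave 1 other cathepsin, 1 inhibitor, 1 other peptidase, 2 glycosidases, 2 sorting genes, 0 proton pump genes, 1 class II gene, 0 myeloid, 0 fibroblast or endothelial and 3 colon markers. The limit there was far higher, at 3658, 3084 and 3018 in replicates 1, 2 and 3, which lowers these counts and the distances that follow. The log2 distance there was -5.09 for CTSD, -4.36 for LGMN, -2.77 for CTSC, and -2.16 and -3.46 for CTSS. The distance was -4.38 for CTSZ 210042_s_at, and -1.36, -2.70, -3.27 and -3.21 for CTSB, and CTSH at 0.06 was not detected. With the limit at the 99th percentile it was -0.31 for CTSS 202901_x_at, -0.43 for CTSZ 210042_s_at, and -0.19 and -0.44 for CTSB 213274_s_at and 213275_x_at, and the counts were 1 other cathepsin, 0 lysosome transcription factors and 0 fibroblast or endothelial markers. With the 90th percentile CTSL was at 0.28, not detected, and CTSB 213274_s_at was detected at 0.76. Without 1 replicate CTSS 202901_x_at ranged from -0.41 to 0.95, member probe sets detected from 8 to 9, the fibroblast and endothelial count from 0 to 1, and the median SD of member probe sets from 0.22 (without replicate 3) to 0.36, against 0.39 with all arrays. That count was also 0 without the variance trend. The cause of these changes was not tested unless stated. No paired analysis was possible because the arrays form 1 group.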

Other observations

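Enzymes and carriers that share the lysosome with the members were detected in part. Of 21 measured glycosidases, sulfatases, lipases and their activators 11 were detected, beside 43.4% of all genes. By probe set the count was 15 of 47, beside 38.0% of all probe sets. PSAP, the precursor of the saposins, had signals of 2353, 2905 and 2029 in replicates 1, 2 and 3 on its brightest probe set, and the galactosidase GLA had 1368, 1523 and 1657. The sulfatases ARSA (41.6, 107 and 41.2) and ARSB (79.5, 102 and 90.7) were under the limit on all arrays. Of 6 further lysosomal peptidases and related hydrolases 4 were detected. They included the thioesterase PPT1 at 3485, 3078 and 4579 and the tripeptidyl peptidase TPP1 at 1241, 923 and 859.8 on its brightest probe set, and SCPEP1 and CPQ were not detected.

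Of 20 measured genes of the lysosomal membrane and of sorting 14 were detected, beside 43.4% of all genes. By probe set the count was 26 of 46, beside 38.0% of all probe sets. LAMP1 had 8020.4, 7402 and 8326 in replicates 1, 2 and 3 on its brightest probe set, and all 4 of its probe sets were detected. The tetraspanin CD63 had 7726, 8318 and 7536, and LAMP2 had 774, 989.7 and 1068 on its brightest probe set. The calcium channel MCOLN1 (157, 116 and 117) was under the limit on all arrays, and the cystine transporter CTNS was not detected.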
